A study of Homo sapiens with 6 samples.

Results

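The cyclins that drive the cell division cycle were followed in RNA of thyroid cancer cells in which GDF15, a secreted ligand of the TGF-beta family, had been knocked down. The group held 9 genes chosen by name, namely CCND1, CCND2, CCND3, CCNE1, CCNE2, CCNA2, CCNB1, CCNB2 and CCNF. All 9 were among the 34738 genes of the expression table, and 8 of them reached the mean of at least 1 FPKM over the libraries that was asked for before testing, as did 11867 genes in all. FPKM counts sequenced fragments relative to the length of the transcript and to the size of the library, so that levels of different genes can be set side by side.

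Cells transfected with siGDF15, a small interfering RNA (siRNA) against GDF15 delivered as a complex with Lipofectamine, were compared with control cells (NC), with 3 biological replicates per group, and poly(A) RNA was sequenced as read pairs of 150 bases. All 6 libraries carry the name of the established thyroid cancer line KHM-5M, and the genotype label of the NC libraries reads control. The sources differ on 2 points. The description deposited with the series calls the control blank, while the methods call it a negative control and list a control siRNA, so the differences below may also hold the effect of transfection itself. A figure legend names another line, TPC-1, and the time between transfection and RNA extraction was not given in the sources used here.

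The targeted gene GDF15 stood at 22.4, 19.3 and 23.2 FPKM in NC and at 10.8, 10.5 and 10.7 FPKM in siGDF15, so the groups did not overlap. Its log2 fold change of siGDF15 over NC was -0.92 (SE 0.0792, adjusted p = 2.4e-05, edgeR's quasi-likelihood test with Benjamini-Hochberg adjustment over all genes tested, which is the test behind every adjusted p given for a gene). Total counts ran from 51738814 to 68025163 per library, the lowest being siGDF15 replicate 2. Mitochondrially encoded genes took 6.39 to 6.78% of the counts in NC and 8.53 to 9.17% in siGDF15, and 7 of the tested cyclins fell in a fit without those genes as in the fit with them. Of the thyroid markers, PAX8 (54.3 to 64.8 FPKM in NC and 77.5 to 80.4 FPKM in siGDF15) and FOXE1 (2.53 to 2.94 FPKM) were present, while TG, NKX2-1, SLC5A5 and DIO1 stayed at or under 0.219 FPKM in all 6 libraries. The immune markers PTPRC and CD3E and the endothelial markers PECAM1, CDH5 and VWF did not exceed 0.161 FPKM in any library, while CD68, a macrophage marker that many cultured lines also express, was at 15.9 to 19.4 FPKM.

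Cyclins are the regulatory subunits of the cyclin-dependent kinases (CDKs), and their rise and fall gives the cell cycle its order. D-type cyclins pair with CDK4 and CDK6 early in G1 and start the phosphorylation of the retinoblastoma protein, E-type cyclins with CDK2 act at entry into S phase, cyclin A2 with CDK2 and CDK1 acts in S phase and G2, and B-type cyclins with CDK1 bring the cell into mitosis. Cyclin F has no known kinase partner and is instead the substrate-binding subunit of an SCF ubiquitin ligase. Transcripts of the E-type, A, B and F cyclins are made periodically by E2F factors and by the complexes of B-MYB (MYBL2) and FOXM1, whereas D-type cyclin transcripts follow growth signals.

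Of the 8 cyclins tested, 7 fell in siGDF15 at an adjusted p under 0.05, and the remaining one, CCNE1, did not pass the test. Over all genes tested, 31.4% fell and 30% rose at that threshold. A further threshold of at least 1 on the log2 scale was passed by 5 of the 8, CCNA2, CCNE2, CCNF, CCNB1 and CCNB2, against 4.78% of all genes tested. In FPKM, every siGDF15 library lay below every NC library for all 8, which was so for 42.8% of all genes tested. The reverse held for 25.6% of all genes tested, so FPKM as deposited leaned toward lower values in siGDF15. The median log2 fold change of the 8 cyclins was -1.40, while that of all genes tested was 0.0026. In RNA of a cell population, fewer cells in the phases that express a cyclin and less of its RNA per cell cannot be told apart.

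**Figure D1:**
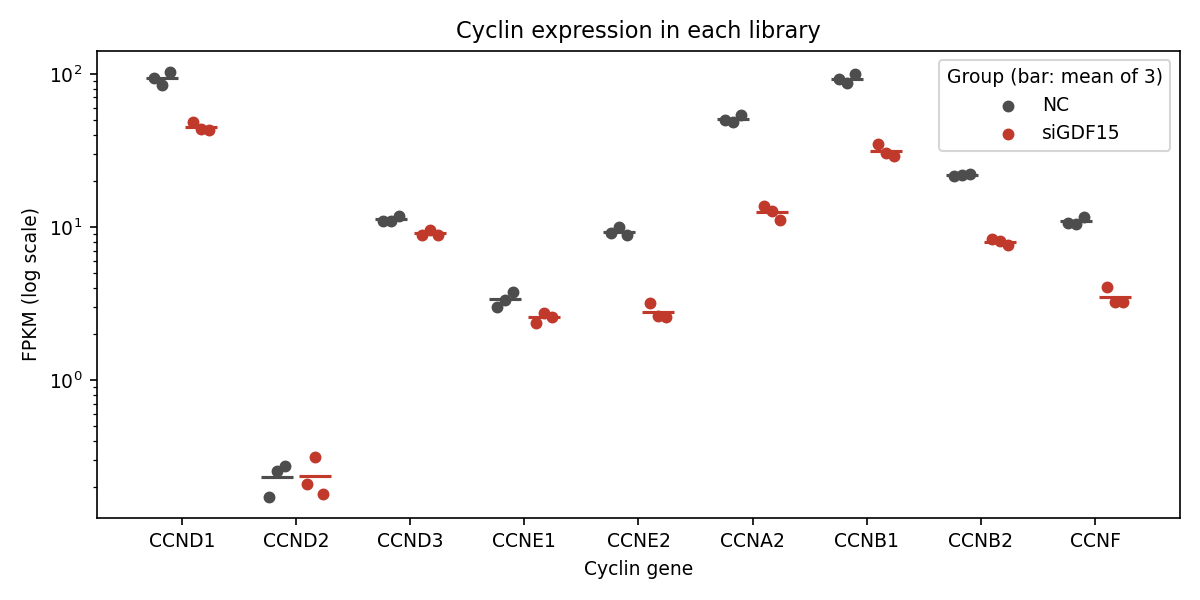
Level of each of the 9 cyclins in FPKM (log axis) in the 3 NC and 3 siGDF15 libraries, with 1 point per library and a line at each group mean. The groups are apart for every cyclin but CCND2, whose points mix between 0.174 and 0.318 FPKM, and the gap between them is widest for CCNA2.

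CCND1 (cyclin D1, ENSG00000110092, GRCh38 chromosome 11 from 69641156 to 69654474, plus strand) was the most abundant D-type cyclin. It measured 94.2, 85.0 and 103 FPKM in NC and 48.4, 43.3 and 42.7 FPKM in siGDF15. The highest siGDF15 library was thus well under the lowest NC library. The group means were 94.0 ± 8.88 and 44.8 ± 3.13 FPKM (SD, n = 3), and the log2 fold change was -0.96 (SE 0.0799, adjusted p = 1.9e-05). This fell just short of the fold threshold, which CCND1 passed in 6 of 16 alternatives, with log2 fold changes from -1.07 to -1.02. These were the library total alone, no filter, both limma fits, and the fits without NC replicate 2 or without siGDF15 replicate 1.

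CCND3 (cyclin D3, ENSG00000112576, chromosome 6 from 41934934 to 42050357, minus strand) moved far less. Its levels were 10.98, 10.9 and 11.7 FPKM in NC and 8.88, 9.51 and 8.81 FPKM in siGDF15. The groups did not overlap, with 9.51 and 10.9 FPKM in the libraries nearest to each other. The log2 fold change was -0.20 (SE 0.0603, adjusted p = 0.019), and the call was lost without siGDF15 replicate 1 (adjusted p = 0.076) or without siGDF15 replicate 3 (adjusted p = 0.086).

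CCND2 (cyclin D2, ENSG00000118971, chromosome 12 from 4269771 to 4305350, plus strand) was barely detected in these cells. It was at 0.174, 0.256 and 0.274 FPKM in NC and at 0.210, 0.318 and 0.180 FPKM in siGDF15, from 105 to 165 counts per library. The groups overlapped and the gene was left out of the test by the filter on low values. In a fit of all 34738 genes without that filter its log2 fold change was 0.059 (SE 0.281, adjusted p = 0.93), an error too wide to tell a fall like that of CCND3 from no change.

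The make-up of the D-type pool differed between the groups. CCND1 held 89.4, 88.4 and 89.5% of the summed FPKM of the 3 genes in NC and 84.2, 81.5 and 82.6% in siGDF15, a mean difference of -6.35 percentage points. The share of CCND3 was 10.4, 11.4 and 10.2% in NC and 15.4, 17.9 and 17.04% in siGDF15. Each of these shares separated the groups completely, for which the exact two-sided permutation test of 3 against 3 libraries gives p = 0.1, the smallest it can give (adjusted p = 0.113 over 9 shares and sums compared). The share of CCND3 was thus larger in siGDF15 although its own level was lower.

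**Figure D2:**
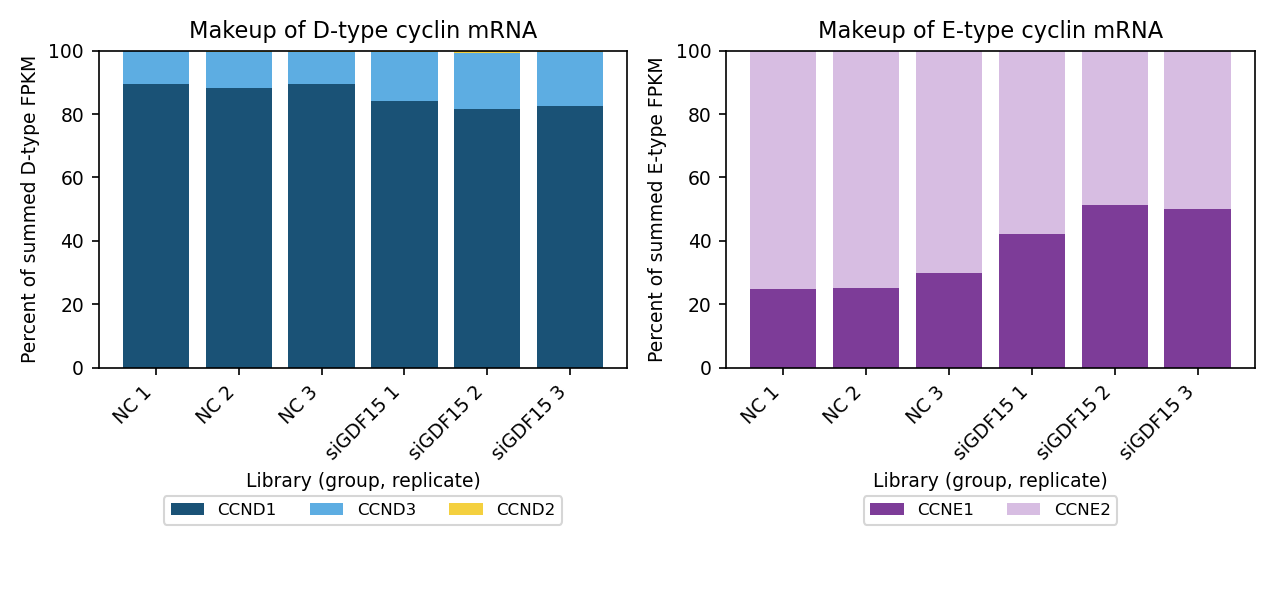
Share of each member in the summed FPKM of the D-type cyclins (left) and the E-type cyclins (right) in each of the 6 libraries, as stacked bars in percent. CCND1 holds at least 88.4% of the D-type sum in NC and at most 84.2% in siGDF15, CCNE1 holds at most 29.7% of the E-type sum in NC and at least 42.2% in siGDF15, and CCND2 is too scarce to be seen in most bars.

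The E-type cyclins were unequal in their response. CCNE2 (cyclin E2, ENSG00000175305, chromosome 8 from 94879770 to 94896678, minus strand) read 9.12, 10.0 and 8.83 FPKM in NC and 3.21, 2.62 and 2.57 FPKM in siGDF15. The highest siGDF15 library was far below the lowest NC library. With a log2 fold change of -1.62 (SE 0.0947, adjusted p = 3e-06), its counts fell to 32.4% of the NC level. The INTS8 gene, at a mean of 18.3 FPKM, overlaps it on the opposite strand, as EXOSC9 (8.54 FPKM) does CCNA2 and LTO1 (1.88 FPKM) does CCND1. Whether the counting used the strand was not stated, so reads of such pairs may not be fully separated.

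CCNE1 (cyclin E1, ENSG00000105173, chromosome 19 from 29811991 to 29824312, plus strand) was the scarcer of the pair in NC. Its values were 3.02, 3.36 and 3.74 FPKM in NC and 2.35, 2.77 and 2.58 FPKM in siGDF15. In FPKM, which lacks the further scaling between libraries used in the test, no siGDF15 library reached the lowest NC library. With that scaling the log2 fold change of -0.29 (SE 0.129) did not pass the test (adjusted p = 0.084), which does not show that the level was unchanged. Under scaling by the library total alone the value was -0.39 and the test was passed (adjusted p = 0.025).

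As a result of these unequal differences, CCNE1 made up 24.9, 25.1 and 29.7% of the summed E-type FPKM in NC and 42.2, 51.3 and 50.1% in siGDF15. Its mean share was 26.6 ± 2.75% in NC and 47.9 ± 4.94% in siGDF15 (SD, n = 3), with no overlap (exact two-sided permutation p = 0.1). In NC the CCNE2 level lay above the CCNE1 level in every library, whereas in siGDF15 the ranges of the pair overlapped.

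Cyclin A2 had the largest log2 difference of the 8 tested. CCNA2 (ENSG00000145386, chromosome 4 from 121816444 to 121823883, minus strand) was measured at 49.7, 48.3 and 54.2 FPKM in NC and at 13.8, 12.8 and 11.2 FPKM in siGDF15. The 3 values of either group lay close together and far from those of the other. The log2 fold change was -1.91 (SE 0.0853, adjusted p = 9.2e-07), which left 26.7% of the NC level and ranked 42 from the lowest among the 11867 genes tested. CCNA1, its germline-type paralog, was near the filter at 0.288 to 1.15 FPKM in NC and 1.24 to 1.45 FPKM in siGDF15 and did not pass the test (log2 fold change 0.96, SE 0.403, adjusted p = 0.068). It did pass under DESeq2's test (adjusted p = 0.021), without NC replicate 2 (log2 fold change 1.44, adjusted p = 0.0069) and without NC replicate 3 (log2 fold change 0.58, adjusted p = 0.048).

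The B-type cyclins fell side by side. CCNB1 (cyclin B1, ENSG00000134057, chromosome 5 from 69167135 to 69178245, plus strand) had 92.4, 87.2 and 99.6 FPKM in NC and 35.0, 30.4 and 28.99 FPKM in siGDF15. In NC its range overlapped that of CCND1, so these were the most abundant cyclins of the group. Its log2 fold change was -1.46 (SE 0.0811, adjusted p = 2.4e-06).

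CCNB2 (cyclin B2, ENSG00000157456, chromosome 15 from 59105126 to 59125045, plus strand) had the tightest NC replicates of the group, with 21.5, 21.8 and 22.1 FPKM in NC and 8.33, 8.06 and 7.59 FPKM in siGDF15. Its log2 fold change was -1.34 (SE 0.0599, adjusted p = 9.2e-07). CCNB1 formed 81.0 ± 0.945% of the summed B-type FPKM in NC and 79.7 ± 0.955% in siGDF15 (SD, n = 3). These shares overlapped between the groups (exact two-sided permutation p = 0.2), so the balance of the pair was not separated at this number of libraries. CCNB3, a meiotic B-type cyclin, remained under the filter at 0.307 to 0.553 FPKM.

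CCNF (cyclin F, ENSG00000162063, chromosome 16 from 2429394 to 2458854, plus strand) measured 10.7, 10.5 and 11.6 FPKM in NC and 4.08, 3.25 and 3.22 FPKM in siGDF15. Every siGDF15 library was under the NC range by more than 6 FPKM. The log2 fold change was -1.53 (SE 0.0977, adjusted p = 4.9e-06), which left 34.7% of the NC level.

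The proximal promoters of these 4 cyclins are printed next, since binding boxes for the factors that time G2 and M phase transcription lie in them. Each run covers 250 bases before to 50 bases after the RefSeq transcription start (GRCh38.p14), 5′ to 3′ on the gene's strand. Windows of 6 of the 9 cyclins were examined. Capitals mark, on either strand, the NF-Y box CCAAT, the cell cycle genes homology region (CHR, the element bound by the DREAM and B-MYB complexes) as TTTGAA or TTCGAA, and the CHR-like forms CTTGAA and TTTAAA. E2F-type boxes are marked too, with TTGGCGC as the first form searched, TTCCCGC as the second form, TTCGCGC as the third form and TTGCCGC as the fourth. The CHR-like forms were added after the promoters had been read. CCNA2 lies at chr4:121823834-121824133 (minus strand), CCNB1 at chr5:69166900-69167199 (plus strand), CCNB2 at chr15:59104896-59105195 (plus strand) and CCNF at chr16:2429197-2429496 (plus strand).
CCNA2: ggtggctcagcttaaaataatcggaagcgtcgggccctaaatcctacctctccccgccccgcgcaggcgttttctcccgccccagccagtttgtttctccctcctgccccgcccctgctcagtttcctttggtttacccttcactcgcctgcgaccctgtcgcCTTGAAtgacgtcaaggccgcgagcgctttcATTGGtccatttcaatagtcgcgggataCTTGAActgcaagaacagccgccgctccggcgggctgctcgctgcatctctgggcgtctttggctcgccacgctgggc
CCNB1: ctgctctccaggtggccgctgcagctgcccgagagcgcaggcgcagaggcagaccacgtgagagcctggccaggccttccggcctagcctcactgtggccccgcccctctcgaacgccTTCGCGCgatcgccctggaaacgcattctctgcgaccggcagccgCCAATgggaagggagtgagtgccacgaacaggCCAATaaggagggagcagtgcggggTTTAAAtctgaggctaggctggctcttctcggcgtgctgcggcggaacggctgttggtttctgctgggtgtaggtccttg
CCNB2: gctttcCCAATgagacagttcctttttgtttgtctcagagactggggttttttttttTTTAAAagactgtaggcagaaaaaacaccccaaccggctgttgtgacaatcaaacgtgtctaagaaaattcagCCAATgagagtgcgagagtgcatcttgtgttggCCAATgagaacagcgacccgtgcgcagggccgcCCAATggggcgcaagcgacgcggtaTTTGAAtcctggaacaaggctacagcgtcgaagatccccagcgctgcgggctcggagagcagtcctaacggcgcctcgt
CCNF: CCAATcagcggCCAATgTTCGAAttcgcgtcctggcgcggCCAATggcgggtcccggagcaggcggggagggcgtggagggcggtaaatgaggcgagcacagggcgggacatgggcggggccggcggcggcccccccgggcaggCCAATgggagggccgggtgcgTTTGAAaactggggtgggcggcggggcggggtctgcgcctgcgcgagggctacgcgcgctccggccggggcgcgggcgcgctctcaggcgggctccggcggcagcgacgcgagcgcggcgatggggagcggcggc

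In all 4 windows an NF-Y box stood shortly before a CHR or CHR-like form. Counted from first base to first base, the distance was 28 bases in CCNA2, 25 in CCNB1, 25 in CCNB2 and 21 in CCNF. Such a pair at a distance of 20 to 30 bases, a range set after these distances were seen, was present in 0.857% of 35116 RefSeq promoter windows of the same length. In CCNA2 and CCNB1 the pair rests on a CHR-like form. Since the CHR-like forms and the range were both set on these promoters, that share cannot show how unusual they are. The CHR-type match began 28 bases before the start site in CCNA2, 30 before it in CCNB1, 29 before it in CCNB2 and 85 before it in CCNF.

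The NF-Y box was also repeated. CCNB2 and CCNF each held 4 copies, CCNB1 held 2 and CCNA2 held 1, while 0.991% of all windows held at least 4 and 34.6% at least 1. An E2F-type box was matched in CCNB1 only among the 4, against 13% of all windows. The CHR was matched in 16.4% of all windows and a CHR-like form in 21.3%.

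Of the cyclins that moved least, CCNE1 had 1 TTTAAA and no NF-Y box in its window (chr19:29811741-29812040), and 2 of the 3 CCND3 windows had 1 NF-Y box each and no CHR-type match. The absence of a match says only that these letters are not in the window. No window of CCND1, CCND2 or CCNE2 was examined, although CCNE2 also passed the fold threshold. No comparison of motif and response was made over so few genes.

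**Figure D3:**
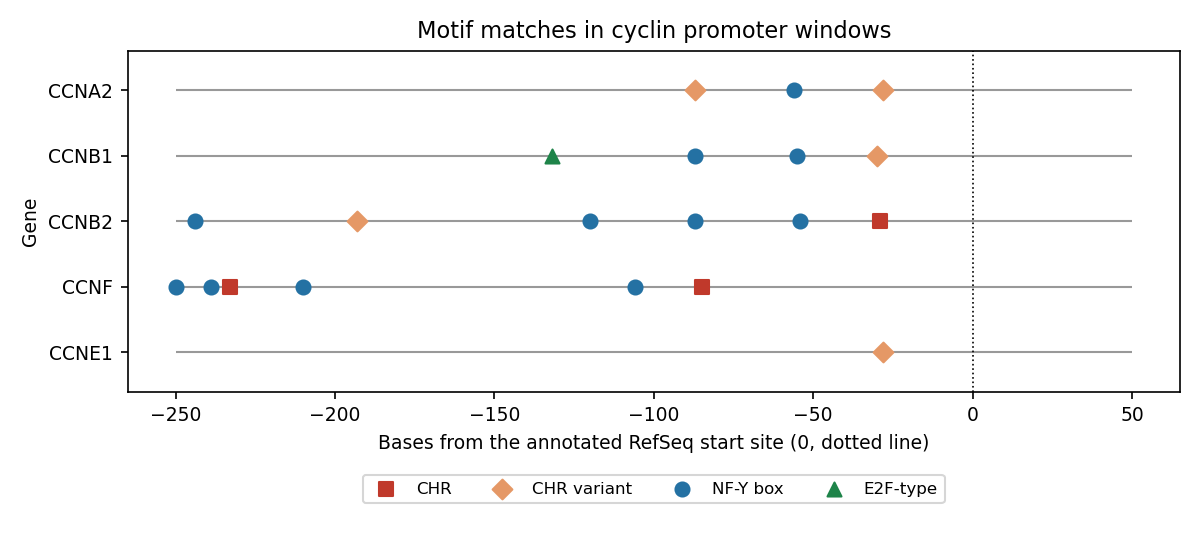
Positions of motif matches relative to the RefSeq start site (0 on the horizontal axis, in bases) in the promoter windows of 5 cyclins, with 1 row per gene and 1 marker at the first base of each match. CCNA2, CCNB1, CCNB2 and CCNF each have an NF-Y marker 21 to 28 bases ahead of a CHR-type marker, and CCNE1 has a single CHR-like marker.

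The order of cyclin levels was not the same in the groups. In NC the order by mean FPKM was CCND1, CCNB1, CCNA2, CCNB2, CCND3, CCNF, CCNE2, CCNE1 and CCND2, with overlapping libraries between CCND1 and CCNB1 and between CCND3 and CCNF. In siGDF15 every CCND3 library stood above every CCNB2 library, the lowest CCND3 value being 8.81 FPKM and the highest CCNB2 value 8.33 FPKM. The 9 cyclins summed to 292, 277 and 315 FPKM in NC and to 124, 113 and 108 FPKM in siGDF15. Of this sum CCND1 held 31.9% in NC and 38.9% in siGDF15, while CCNA2 held 17.2% and 10.9%.

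Replicates of a group also ranked alike across genes. NC replicate 3 had the highest NC level for 7 of the 8 tested cyclins, the exception being CCNE2. Among the siGDF15 libraries, replicate 1 was the highest for 6 and replicate 3 the lowest for 7. These spreads were small against the group difference for CCNA2, CCNB1, CCNB2, CCNE2 and CCNF, and larger relative to it for CCND3 and CCNE1.

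The genes whose pattern over the 6 libraries was most like that of a cyclin were found by Pearson's r of log2 CPM (counts scaled to library size) over all genes tested. For CCNA2 these were HMGN2, TYMS and SKA3 (r from 0.99977 to 0.99985), for CCNB1 MPHOSPH6, BIRC5 and DNMT1, for CCNB2 NCAPD2, APOBEC3B and POLE, and for CCNE2 BRCA2, KNL1 and CWF19L1. CCND1 was matched by ADPGK, AUNIP and TMEM70. For CCND3 (MGAT5B, PLCL2 and BRF2) and CCNE1 (NUBP2, ACTR5 and ANKRD13B) the highest r was lower, at 0.99044 and 0.99178. With 3 libraries on either side of a gap, such an r mostly restates the gap between the groups.

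The kinases that cyclins activate fell with them in part. Of the 10 CDKs, CDC25 phosphatases and counter kinases listed, 8 fell and 1 rose, and 7 fell past the fold threshold, where 31.4, 30 and 4.78% of all genes tested did so. The 7 were CDK1, CDK2, the CDC25 phosphatases and the counter kinases, so these counts are not of cyclin-activated kinases alone. CDK1, the mitotic kinase, was at 33.8, 35.5 and 34.8 FPKM in NC and at 9.24, 8.54 and 8.64 FPKM in siGDF15, a log2 fold change of -1.87 (SE 0.0488, adjusted p = 2.8e-07). CDK2, the partner of cyclins E and A, had a log2 fold change of -1.38 (adjusted p = 6.3e-07), and CDC25B, a phosphatase that activates CDK1, of -1.12 (adjusted p = 5.8e-07).

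The G1 kinases behaved otherwise. CDK4 was at 66.0, 64.2 and 68.3 FPKM in NC and at 51.7, 55.4 and 53.4 FPKM in siGDF15, a log2 fold change of -0.20 (adjusted p = 0.0087). CDK6 was at 3.94, 3.81 and 4.86 FPKM in NC and at 4.61, 4.46 and 4.42 FPKM in siGDF15 and did not pass the test (log2 fold change 0.20, adjusted p = 0.095), although without NC replicate 3 it did (log2 fold change 0.32, adjusted p = 0.0011). The member that rose was CDK7, the kinase that activates other CDKs, with a log2 fold change of 0.39 (adjusted p = 0.003).

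Ratios of a cyclin's FPKM to that of a kinase partner (10) or of another cyclin (5), chosen after the values had been seen, show how far the members of a pair moved together. CCNA2 to CDK1 was 1.47, 1.36 and 1.56 in NC and 1.49, 1.495 and 1.30 in siGDF15, overlapping ranges (exact two-sided permutation p = 0.7). CCNB1 to CDK1 was 2.74, 2.46 and 2.87 in NC and higher in siGDF15 at 3.79, 3.56 and 3.36, because CDK1 transcripts had fallen further than those of CCNB1. CCND1 to CDK4 was lower in siGDF15, at 1.43, 1.32 and 1.504 in NC and 0.936, 0.781 and 0.800 in siGDF15.

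For CCND3 to CDK4 the ratio overlapped between the groups, at 0.166 to 0.172 in NC and 0.165 to 0.172 in siGDF15 (exact two-sided permutation p = 1). CCNE1 to CDK2 differed the most upward among the ratios to a kinase, with a mean of 0.145 ± 0.0163 in NC and 0.311 ± 0.0401 in siGDF15 (SD, n = 3). The groups were separated completely by 8 of the 10 ratios to a kinase and 4 of the 5 ratios between cyclins, each at the exact permutation p = 0.1 (adjusted p = 0.125 over all 15). These are ratios of transcripts and not of protein complexes.

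**Figure D4:**
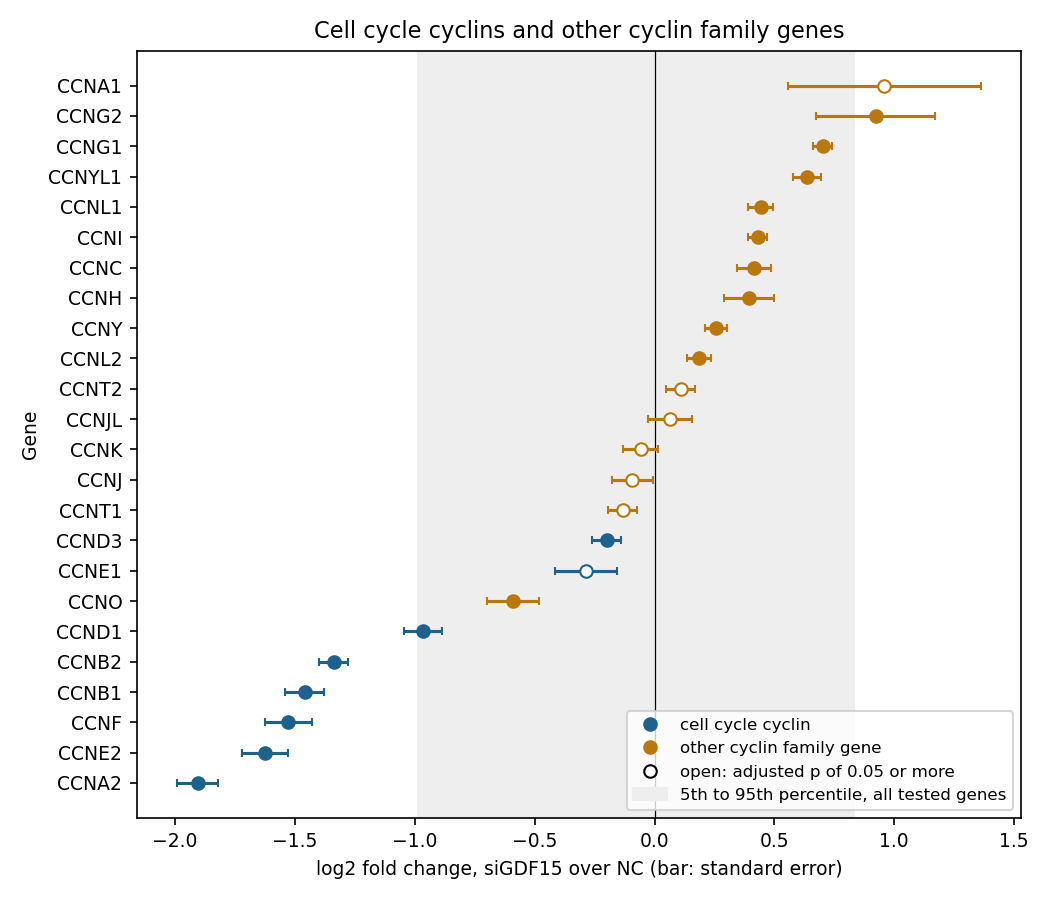
Log2 fold change of siGDF15 over NC with its standard error for the tested cell cycle cyclins and the tested genes of the other cyclin families, ordered by size. The shaded band holds the 5th to 95th percentile of all genes tested, and open points did not pass the test. CCNA2 lies at -1.91 and CCND3 at -0.20, while the other family genes run from CCNO at -0.59 to CCNA1 at 0.96.

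Cyclin family genes outside this group did not share its direction. Of 20 listed, 16 were tested, 9 rose, 1 fell and 6 passed neither way, with a median log2 fold change of 0.33, where 30% of all genes tested rose and 31.4% fell. CCNG1, a p53-induced cyclin, went from 43.5, 42.6 and 42.4 FPKM in NC to 65.2, 63.6 and 65.3 FPKM in siGDF15 (log2 fold change 0.70, adjusted p = 2.6e-06). CCNYL1, a relative of the membrane-bound cyclin Y, had a log2 fold change of 0.64 and CCNI, an atypical cyclin, of 0.43 (both adjusted p = 3.2e-05). The gene that fell was CCNO, a cyclin of multiciliated cells, at -0.59 (adjusted p = 0.0015). With the library total alone in place of TMM scaling, 8 rose and 2 fell, the second being CCNT1, a cyclin of transcription elongation.

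The CDK inhibitors were divided. Of 7 tested, 4 rose and 2 fell, where 30 and 31.4% of all genes tested did so. Past the fold threshold 1 rose, CDKN2B, as did 3.03% of all genes tested. CDKN2B (p15, an inhibitor of CDK4 and CDK6) went from 2.06, 2.30 and 1.98 FPKM in NC to 8.76, 8.996 and 9.52 FPKM in siGDF15, a log2 fold change of 2.21 (SE 0.0755, adjusted p = 4.6e-07). CDKN2A (p16 and ARF) rose by a log2 fold change of 0.40 (adjusted p = 0.00033) and CDKN1B (p27) of 0.43 (adjusted p = 0.00065), while CDKN2C (p18) fell, with -0.77 (adjusted p = 0.0001).

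CDKN1A (p21, the inhibitor that p53 induces) was at 93.3, 76.3 and 91.5 FPKM in NC and at 98.5, 97.9 and 97.5 FPKM in siGDF15. Its log2 fold change of 0.28 passed the test (adjusted p = 0.014), and the call was lost when the library total alone set the scale, in the fit without a filter and in both limma fits, with a log2 fold change down to 0.17. For 4 of the 7 inhibitors every siGDF15 library lay above every NC library in FPKM, which was so for 25.6% of all genes tested.

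The machinery that marks cyclins for destruction, listed together with its inhibitor FBXO5, fell for the most part. Of 12 genes, 8 fell, 6 of them past the fold threshold, and 3 rose, against 31.4, 4.78 and 30% of all genes tested. UBE2C, the ubiquitin-conjugating enzyme of the anaphase-promoting complex that ends the life of cyclins A and B, had a log2 fold change of -1.78 (adjusted p = 9.1e-07), FBXO5, an inhibitor of that complex, of -1.48 (adjusted p = 9.1e-07) and CKS1B, a cofactor of SKP2, of -1.52 (adjusted p = 1e-06). The genes that rose were FBXW7 (the receptor for cyclin E, 0.25, adjusted p = 0.036), AMBRA1 (a receptor for D-type cyclins, 0.25, adjusted p = 0.0062) and FBXO31 (a receptor for cyclin D1, 0.46, adjusted p = 0.00029). Only FBXO31 remained a call under the library total alone or in the limma fits, and that of FBXW7 was also lost without a filter, with the filter at 0.1 FPKM and without any 1 of 4 libraries, NC replicates 1 and 2 and siGDF15 replicates 1 and 3 (adjusted p up to 0.32).

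Transcription factors and pocket proteins that act on cyclin promoters fell in 17 of 23 cases, with 9 past the fold threshold, and 1, E2F5, rose. The shares over all genes tested were 31.4, 4.78 and 30%. MYBL2 (B-MYB) had 111, 104 and 111 FPKM in NC and 41.3, 39.8 and 37.0 FPKM in siGDF15, a log2 fold change of -1.36 (adjusted p = 7.9e-07). FOXM1 fell with -1.46 (adjusted p = 9.2e-07), E2F8, a repressing E2F, with -1.61 (adjusted p = 1.3e-06) and E2F1 with -1.15 (adjusted p = 6.4e-06). These 4 factors are themselves transcribed periodically in dividing cells.

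Transcripts of proteins that cyclin F binds, listed here as its substrates, were lower as well. All 8 listed fell, 7 past the fold threshold, with a median log2 fold change of -1.31, beside 31.4 and 4.78% of all genes tested. RRM2, a subunit of ribonucleotide reductase, had the log2 fold change of -1.89 (adjusted p = 4.5e-07), NUSAP1, a spindle protein, of -1.56 (adjusted p = 8.2e-07) and SLBP, which binds histone messages, of -0.71 (adjusted p = 6.2e-05). MYBL2 and E2F1 are also on this list, and cyclin F acts on the proteins, which were not measured here.

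The proliferation markers moved with the cyclins, and their part in the cyclin results was not tested. MKI67 was at a log2 fold change of -1.74 (adjusted p = 7.3e-07), TOP2A of -1.89 (adjusted p = 5.5e-07) and PCNA of -1.20 (adjusted p = 1e-06). Together the 3 summed to 277 to 289 FPKM in NC and to 90.2 to 104 FPKM in siGDF15, without overlap.

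**Figure D5:**
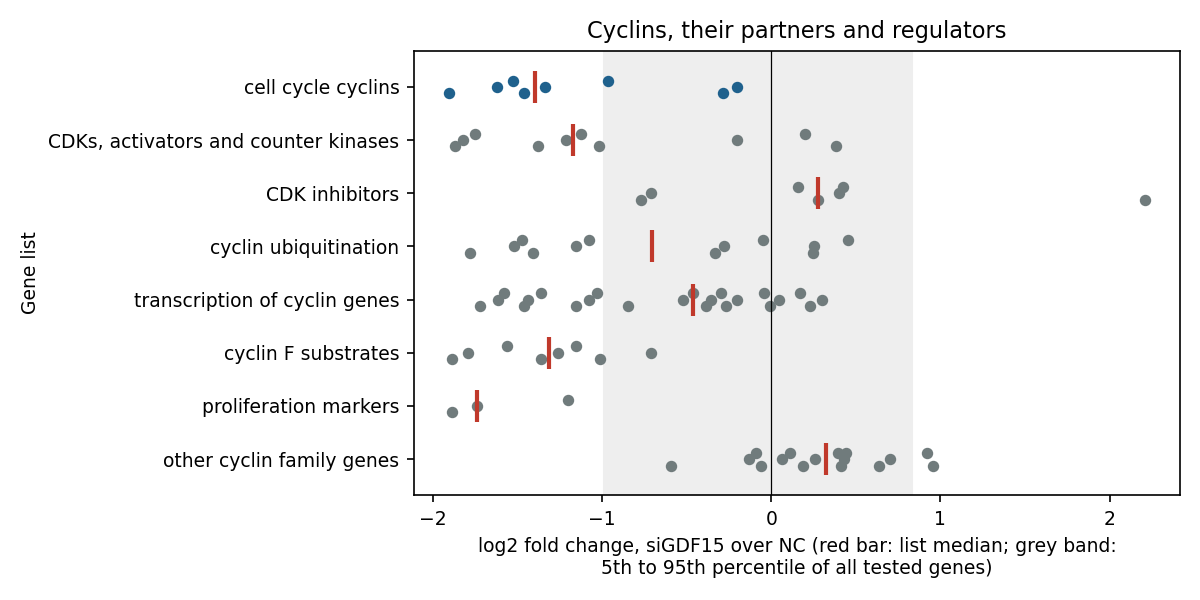
Log2 fold change of siGDF15 over NC for each tested gene of 8 lists (1 point per gene), with the median of each list as a bar and the 5th to 95th percentile of all 11867 genes tested, -0.99 to 0.83, shaded. The cell cycle cyclins, the kinase list, the cyclin F substrates and the proliferation markers have their medians below the shaded band, while other cyclin genes and CDK inhibitors have theirs above 0.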

How the data were processed

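Poly(A) RNA of 3 NC and 3 siGDF15 replicates was sequenced from libraries made with a dUTP second strand. Per the submitters' notes, reads were handled with fastp, HISAT2 and StringTie and mapped to GRCh38, with no versions given in the sources used here. The authors deposited 2 values per gene and library, FPKM, which is relative to transcript length and library size, and expected counts, whole numbers that StringTie derives from coverage. The value 4 was the most frequent count from 1 to 20 (15.6% of them), so 1 read pair is worth about 4 counts. Small counts are therefore less precise than they look, and a fit with counts divided by 4 was among the alternatives.

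Genes at a mean of 1 FPKM or more were tested with edgeR 4.0.16 (TMM, glmQLFit, glmQLFTest, two-sided) and Benjamini-Hochberg adjustment over all 11867. Standard errors came from the quasi-likelihood F statistic. Shares and ratios of FPKM were compared with exact two-sided permutation tests. Alternatives were DESeq2 1.42.0 and its size factors, the library total alone, other filters, limma 3.58.1 on log2(FPKM + 1) and log2(FPKM + 0.1), the deposited FPKM values being the input there, removal of the mitochondrial genes, a replicate block and each library left out. R 4.3.3 and Python 3.11.15 were used. The edgeR, DESeq2 and limma fits were checked on simulated counts, while the shares, ratios and motif searches were not.

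All 9 cyclins and GDF15 were named, as were, of each list, the 3 tested genes with the smallest adjusted p, fixed partners of the cyclins, and the 3 genes most correlated with each tested cyclin. The correlated genes of CCNF and 1 thyroid marker are not reported here. A gene outside this rule (CDK7, CCNO, CCNA1, CCNB3, CCNT1, AMBRA1, FBXO31, E2F5, SLBP, INTS8, EXOSC9 and LTO1) was named after its values were seen. The members and lists were chosen with earlier results of these data known. Gene coordinates are those of the deposited table. They equal GENCODE release 29 for 2 of the 9 cyclins and otherwise differ at an end. Promoter windows came from RefSeq (GRCh38.p14).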

Additional observations from a re-analysis of the deposited data

How the results depend on the processing

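In all 16 alternatives the number of tested cyclins that fell was 6 to 8 and none rose. It was 8 under the library total alone and in both limma fits, which added CCNE1 (log2 fold changes of -0.39, -0.29 and -0.38), and 6 without siGDF15 replicate 1 or 3, which cost CCND3. No tested cyclin changed direction, nor did the 4 shares that were recomputed, those of CCND1, CCND3, CCNE1 and CCNB1 in their own type. The library total alone moved the median of all genes from 0.0026 to -0.0992 and the higher share of calls from 48.9% to 36.6%. It and both limma fits left 1 ubiquitination gene higher and 2 other cyclin genes lower. Over all genes, calls past the fold threshold were 567 lower and 360 higher. They came to 852 and 817 with a mean FPKM of at least 0.1 and to 859 and 800 without a filter, where more genes were tested, and 131 were higher under limma on log2(FPKM + 1). With each library left out in turn, 1 to 2 kinase genes and 1 to 2 transcription genes were higher. Replicates share only a number: the correlation of same-numbered deviations was -0.0693 to 0.0503 over 3 pairs, and with the replicate block 7 cyclins still fell, with 3515 genes lower and 3391 higher in all, and CCNA1 passed the test (log2 fold change 1.13, adjusted p = 0.035). At 3 libraries per group an exact permutation test cannot reach p below 0.1, and CCND2 is too scarce for a fold.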
